A study of Mus musculus with 6 samples.

Results

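The genes described here encode the colony stimulating factor CSF1 and the receptor chains for CSF1, for GM-CSF (CSF2) and for G-CSF (CSF3). They were taken by name from the authors' table of all genes: Csf1, Csf1r, Csf2ra, Csf2rb, Csf2rb2 and Csf3r. All 6 had a row among 13960 rows, and 5 of them were among the 13042 genes that could be tested; Csf3r was not, for a reason given with its values. RNA was measured in 3 libraries made 7 days after a contusion of the mouse spinal cord at level T8 and in 3 libraries made 3 days after it. Every library was a RiboTag immunoprecipitate of the injury site from mice labelled as LysMCre:Rplfl/fl > CD45.1 chimeras of strain CD45.1, so both times carry the same alleles. In the RiboTag method a Cre recombinase switches on an epitope tag on a ribosomal protein, and RNA bound to tagged ribosomes is precipitated. LysMCre acts in macrophages and also in other myeloid cells such as neutrophils, so the precipitate is not limited to macrophages. There is no uninjured cord among the samples, and all values compare 7 days with 3 days. Whether a library is 1 animal or a pool is not stated in the labels; p-values here reflect variation among libraries, which may be technical.

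Colony stimulating factors control the survival, division and function of myeloid cells. CSF1 and IL-34 both bind CSF1R, a receptor tyrosine kinase on monocytes, macrophages and microglia on which most tissue macrophages depend. GM-CSF binds an alpha chain encoded by Csf2ra, which pairs with the common beta chain encoded by Csf2rb; the same beta chain serves the receptors for IL-3 and IL-5. Mice carry a second beta chain gene, Csf2rb2, whose product works with the IL-3 alpha chain only. CSF3R, the receptor for G-CSF, is best known from neutrophils and their precursors. The beta chains and CSF3R have no kinase of their own and signal through JAK kinases and STAT factors.

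The values are FPKM, fragments scaled to transcript length and to library size, and read depth per gene is unknown. Of 7 tested macrophage markers, 2 were called higher and 3 lower at 7 days, and their summed level was 1188 to 1206 FPKM at 7 days and 1184 to 1366 FPKM at 3 days. Of 8 microglia markers 7 were higher and 0 lower, with sums of 2341 to 2578 FPKM at 7 days and 788 to 987 FPKM at 3 days. Inflammatory monocyte markers were lower in 6 of 8 (194 to 249 FPKM at 7 days, 491 to 570 FPKM at 3 days). Neutrophil markers were higher in 2 and lower in 5 of 12, dendritic cell markers higher in 2 of 4, and endothelial markers higher in 1 and lower in 6 of 8. Fibroblast and pericyte markers were lower in 4 of 6, astrocyte markers in 5 of 7, and oligodendrocyte and neuron markers in 7 of 7 each. The neuron sum was 41.8 to 54.9 FPKM at 7 days and 138 to 321 FPKM at 3 days, highest in 3-day replicate 2. In such mixed RNA, fewer cells of a type, less RNA per cell and less RNA from untagged ribosomes cannot be told apart. The share of untagged RNA at each time, and its part in the changes of the members, was not tested.

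Of the 5 members that could be tested, 3 were higher at 7 days and 0 were lower, by limma with a Benjamini-Hochberg adjusted p of 0.05 or less over all 13042 genes. The 3 were Csf1r, Csf2ra and Csf2rb. No member was lower at an unadjusted p of 0.05 either. Over all tested genes, 18.8% were called higher and 20.3% lower. All 3 libraries at 7 days lay above all 3 at 3 days for 4 of the 5, the called ones and Csf2rb2, and for 26.8% of all tested genes. The median log2 change of the 5 was 0.49, and that of all genes was -0.04. FPKM is scaled to transcript length, so levels can be set side by side as far as the length and reads assigned to each gene are right. Reads of Csf2rb and Csf2rb2 may be split uncertainly, and the place of Csf2rb differs between the authors' tables, as given below. Csf1r was the highest member in each of the 6 libraries and Csf2rb the second. Csf2ra and Csf2rb2 followed, with Csf2ra above Csf2rb2 in replicate 1 of each time and below it in the other 4 libraries. By library values the lowest member was Csf1 at 7 days and Csf3r at 3 days; by the values the authors deposited for the times, which contradict the libraries for Csf3r alone among the members, Csf3r was lowest at both.

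**Figure D1:**
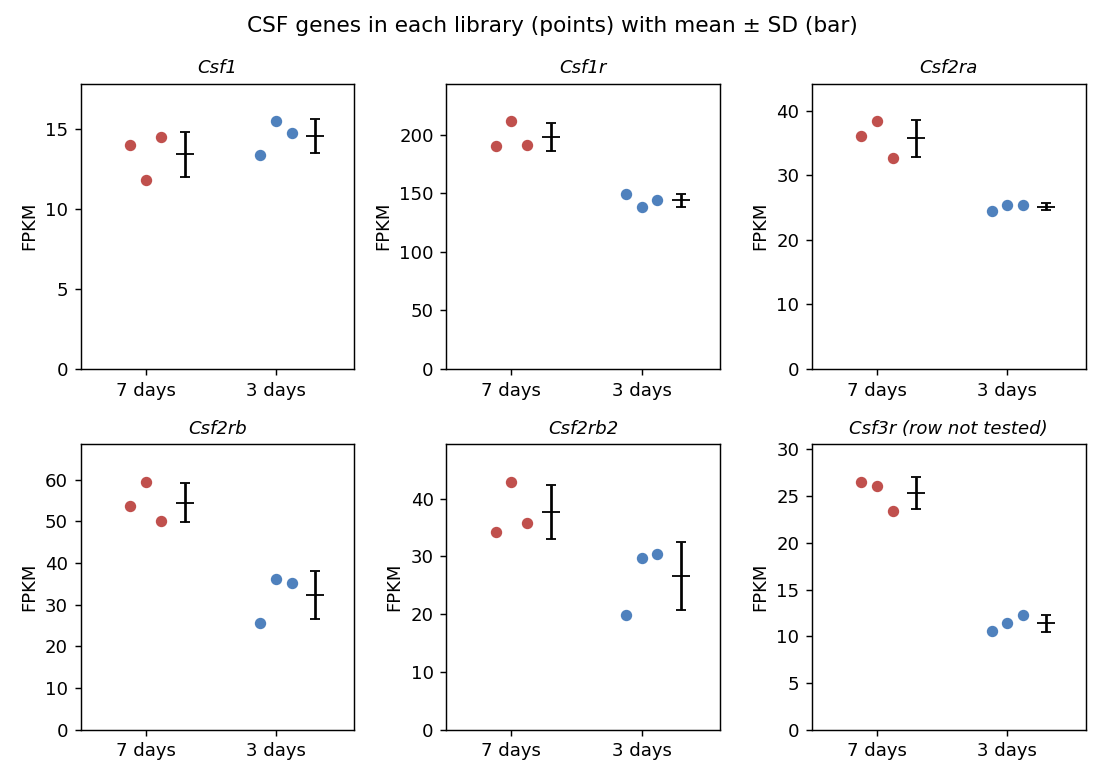
FPKM of the 6 members in each library; each panel has its own linear axis from 0, points are libraries at 7 days (left) and 3 days (right), and the bar beside them is the mean ± SD of 3 libraries. Csf1 overlaps between the times. Csf1r, Csf2ra, Csf2rb and Csf2rb2 have all 7-day libraries above all 3-day libraries, as do 26.8% of all tested genes. Csf3r does so by its library values only. Its row was not tested, and the values the authors deposited for the times have the reverse direction.

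Csf1, the secreted growth factor of macrophages, was at the same order of level at both times. It measured 13.98, 11.8 and 14.5 FPKM in the 7-day libraries and 13.4, 15.5 and 14.8 FPKM in the 3-day libraries. The libraries of both times overlapped, and the spread within a time was larger than the difference between the means. The means were 13.4 ± 1.41 FPKM at 7 days and 14.6 ± 1.08 FPKM at 3 days (n = 3 each, mean ± SD). The log2 change of -0.11 ± 0.12 (SE) did not pass the test (limma adjusted p = 0.480), and its 95% interval ran from -0.39 to 0.17. The authors' table places the gene at mm10 chromosome 3, 107740537 to 107760497.

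Il34, the other ligand of CSF1R, known in brain mainly from neurons, was near the lower end of the scale. It had 0.838, 0.529 and 0.203 FPKM at 7 days and 0.717, 1.67 and 0.255 FPKM at 3 days. The highest value was in 3-day replicate 2, the library with the highest neuron marker sum, and the times overlapped. The log2 change was -0.26 ± 0.31 (limma adjusted p = 0.520); without 3-day replicate 2 it was 0.032, and with quantile normalization 0.29. The part of neuronal RNA in the Il34 level was not tested. GENCODE M21 has antisense genes over Il34, so its reads may not be told apart from theirs. The other ligands on the list of related genes, Csf2, Csf3, Il3 and Il5, and the IL-5 receptor alpha chain Il5ra have no row in the table used here.

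Csf1r, the receptor for CSF1 and IL-34, was the most abundant member and rose at 7 days. It measured 190.7, 212 and 191 FPKM in the 7-day libraries, against 149, 138 and 144 FPKM in the 3-day libraries. The groups did not overlap: the lowest 7-day library lay above the highest 3-day library. The means were 198 ± 12.02 FPKM at 7 days and 144 ± 5.57 FPKM at 3 days (n = 3 each, mean ± SD), a 1.38-fold difference. The log2 change was 0.46 ± 0.10 (SE; limma adjusted p = 0.00967). With quantile normalization it was 0.25 and no longer called (adjusted p = 0.0638), and the adjusted p over all alternatives ran from 0.00879 to 0.0638. By level, Csf1r stood above 97.8% of tested genes at 7 days and above 97.2% at 3 days. The authors' table gives mm10 chromosome 18, 61105708 to 61131371. In the GENCODE M21 annotation the end of Csf1r overlaps the end of Hmgxb3 on the other strand over a short stretch. How the authors' counting used strand is not given in the sources used here. Hmgxb3 had 12.1, 11.2 and 12.3 FPKM at 7 days and 18.03, 15.5 and 13.1 FPKM at 3 days, and was not called (limma adjusted p = 0.0771). Its part in the Csf1r values was not tested.

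Relative to its ligand, Csf1r was higher at 7 days. The ratio of Csf1r to Csf1 was 13.6, 17.9 and 13.2 at 7 days, against 11.1, 8.89 and 9.78 at 3 days. Relative to the summed macrophage markers, Csf1r was at 0.160, 0.176 and 0.161 at 7 days and at 0.123, 0.117 and 0.106 at 3 days. Neither ratio overlapped between the times, and each had an exact two-sided permutation p of 0.1, the smallest that 3 against 3 libraries allow. The marker sum leaves out Emr1 and Lyz2, which were set aside, and its most abundant genes were Itgam, Fcgr1 and Msr1. Of the summed markers, Mertk (log2 0.85) and Aif1 (0.68) rose more than Csf1r (0.46). Itgam (0.13) rose less, and Msr1 (-0.11), Fcgr1 (-0.77), Cd14 (-0.86) and Cd163 (-1.44) had negative changes. The direction of the ratio to macrophage markers thus depends on which markers are summed. The microglia markers, from a cell type that also uses CSF1R, were higher in the same 7-day libraries, as given above. Their part in the Csf1r change was not tested.

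**Figure D2:**
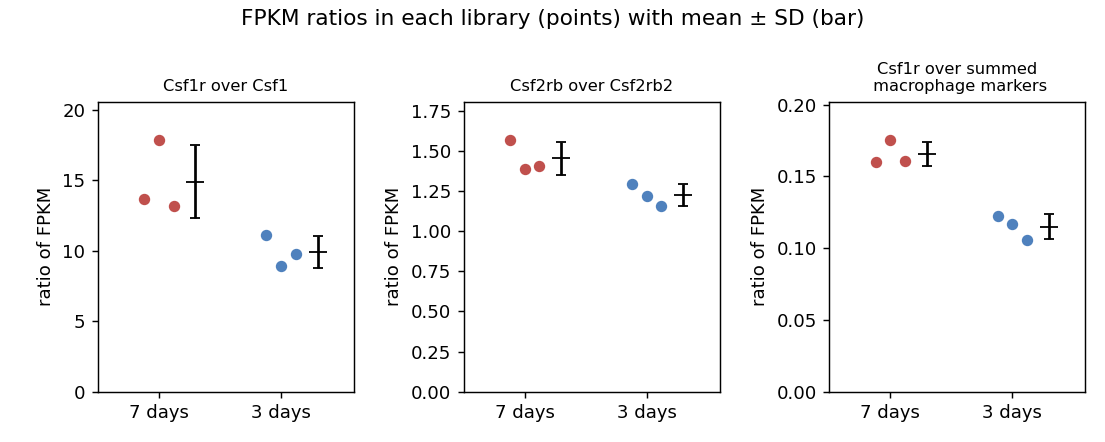
Ratios of FPKM in each library, 7 days left and 3 days right, for Csf1r over Csf1, Csf2rb over Csf2rb2 and Csf1r over the sum of 7 macrophage markers; points are libraries, the bar is the mean ± SD (n = 3), and each axis is linear from 0. In all 3 panels the lowest 7-day ratio lies above the highest 3-day ratio.

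Csf2ra, the chain that gives the GM-CSF receptor its specificity, rose at 7 days. It measured 36.1, 38.4 and 32.7 FPKM in the 7-day libraries and 24.5, 25.5 and 25.4 FPKM in the 3-day libraries. The 3-day libraries were close to each other and all below the 7-day libraries. The means were 35.7 ± 2.90 FPKM at 7 days and 25.1 ± 0.552 FPKM at 3 days (n = 3 each, mean ± SD), with a log2 change of 0.49 ± 0.10 (limma adjusted p = 0.00758). The call held under all 15 alternatives run for it, with adjusted p from 0.00656 to 0.0346. The authors' table gives mm10 chromosome 19, 61223638 to 61228484.

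The stretch of 250 bases before the RefSeq start of transcription is shown for a receptor gene that rose and for the ligand gene that was not called, with GAGGAA and its reverse complement TTCCTC in capitals. GAGGAA is the core of the site bound by PU.1, the factor of macrophage genes encoded by Spi1. Sequences are from RefSeq on GRCm38.p6, 5′ to 3′ on the strand of the gene, at chr19:61228419-61228668 (minus strand) for Csf2ra and chr3:107760470-107760719 (minus strand) for Csf1.
Csf2ra: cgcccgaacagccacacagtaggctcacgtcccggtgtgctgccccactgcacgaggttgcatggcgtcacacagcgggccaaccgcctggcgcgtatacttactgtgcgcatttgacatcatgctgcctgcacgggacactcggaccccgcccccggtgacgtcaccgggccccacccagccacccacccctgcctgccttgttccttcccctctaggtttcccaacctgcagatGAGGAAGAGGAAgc
Csf1: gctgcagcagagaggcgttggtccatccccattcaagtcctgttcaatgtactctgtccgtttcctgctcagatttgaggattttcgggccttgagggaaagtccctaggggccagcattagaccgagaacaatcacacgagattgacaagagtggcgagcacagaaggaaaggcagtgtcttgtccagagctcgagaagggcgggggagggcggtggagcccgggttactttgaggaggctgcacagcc
The Csf2ra window holds the motif 2 times in a row, starting 14 and 8 bases before the RefSeq start, and the Csf1 window holds it 0 times on either strand. The windows of Csf3r and Csf2rb2 hold it 1 time each. Of 32851 windows of the same length, 23.3% hold it at least 1 time and 3.54% at least 2 times. Sources differ on the start. GENCODE M21 ends Csf2ra, on the minus strand, at base 61228429 and the authors' table at base 61228484, so the copy 8 bases before the RefSeq start lies inside the GENCODE gene and both copies lie inside the authors' gene. RefSeq windows for Csf1r and Csf2rb were not used here. A match is a match of letters; binding was not measured.

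Csf2rb, the beta chain shared by the GM-CSF, IL-3 and IL-5 receptors, had the largest log2 change among the 5 tested members. It measured 53.6, 59.5 and 50.2 FPKM in the 7-day libraries and 25.7, 36.2 and 35.1 FPKM in the 3-day libraries. All 7-day libraries were higher, and 3-day replicate 1 was the lowest. The means were 54.4 ± 4.73 FPKM at 7 days and 32.3 ± 5.78 FPKM at 3 days (n = 3 each, mean ± SD), a 1.68-fold difference. The log2 change was 0.75 ± 0.15 (limma adjusted p = 0.00771), and the call held under all 16 alternatives run for it.

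Csf2rb2, the beta chain used in mice for IL-3 alone, moved in the same direction without passing the test. It measured 34.2, 42.9 and 35.7 FPKM in the 7-day libraries and 19.8, 29.7 and 30.4 FPKM in the 3-day libraries. The times did not overlap, but 3-day replicate 1 lay well below the other 3-day libraries. The means were 37.6 ± 4.68 FPKM at 7 days and 26.6 ± 5.89 FPKM at 3 days (n = 3 each, mean ± SD). The log2 change was 0.50 ± 0.18 with a 95% interval from 0.08 to 0.92 (limma adjusted p = 0.0590; unadjusted p = 0.0245). It was called when each library was centred on its median gene (adjusted p = 0.0249), while quantile normalization gave an adjusted p of 0.200. Without 3-day replicate 1 the log2 change was 0.31 (adjusted p = 0.0937), and with each library left out in turn it ran from 0.31 to 0.60. In the authors' deposited table the q-value was 0.0133.

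The beta chain genes lie next to each other on chromosome 15 and are close copies, so their reads may be split uncertainly. In the GENCODE M21 transcripts with the longest coding sequence, 2688 bases for Csf2rb and 2634 for Csf2rb2, 95.2% of 2628 aligned bases were identical, and the longest identical run was 242 bases. Of all stretches of 50 bases in the Csf2rb coding sequence, 26.03% occur unchanged in that of Csf2rb2. The first 90 coding bases are shown as an example of how few positions separate them, with the 3 differing bases in capitals.
Csf2rb: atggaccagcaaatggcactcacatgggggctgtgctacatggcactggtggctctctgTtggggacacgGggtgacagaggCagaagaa
Csf2rb2: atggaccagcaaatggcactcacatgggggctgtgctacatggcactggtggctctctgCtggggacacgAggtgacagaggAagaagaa
Summed into 1 row, the pair rose by 0.65 ± 0.16 on the log2 scale (limma adjusted p = 0.0177), an alternative added after the data were seen. The ratio of Csf2rb to Csf2rb2 was 1.57, 1.39 and 1.40 at 7 days, against 1.30, 1.22 and 1.16 at 3 days. The ratios did not overlap (exact two-sided permutation p = 0.1, the smallest possible with 3 against 3 libraries). How the authors' counting divided shared reads is not given in the sources used here. The authors' 2 tables also place Csf2rb differently. The table of all genes gives mm10 bases 78342842 to 78351362, and the filtered one gives bases 78325655 to 78340844, with identical library values. The GENCODE M21 gene, 78325752 to 78353847, spans most of both. Csf2rb2 is given at 78292450 to 78313162 in the authors' table and at 78282507 to 78305721 in GENCODE M21.

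Il3ra, the IL-3 receptor alpha chain that pairs with either beta chain in mice, rose as well. It measured 33.3, 28.5 and 37.4 FPKM at 7 days and 14.9, 14.0 and 20.2 FPKM at 3 days, with no overlap. The means were 33.0 ± 4.44 FPKM at 7 days and 16.4 ± 3.37 FPKM at 3 days (n = 3 each, mean ± SD), a log2 change of 0.98 ± 0.16 (limma adjusted p = 0.00412). GENCODE M21 has an antisense gene that overlaps Il3ra by 990 bases, so reads of the pair may not be told apart. The alpha chains of the GM-CSF and IL-3 receptors and the common beta chain were thus called higher, as were 18.8% of all tested genes. Csf2rb2, the beta chain for IL-3 alone, was not called (limma adjusted p = 0.0590), and Il5ra has no row in the table used here.

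**Figure D3:**
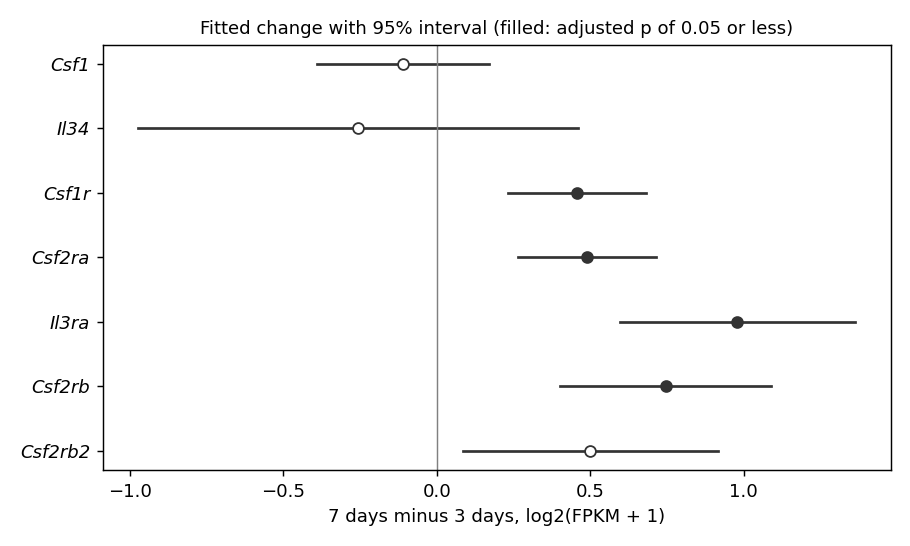
Fitted change at 7 days minus 3 days in log2(FPKM + 1) with its 95% interval for the tested ligand and receptor genes; filled points passed the adjusted p of 0.05 and open points did not. The ligands Csf1 and Il34 have intervals that include 0; Csf1r, Csf2ra, Il3ra and Csf2rb are filled, and Csf2rb2 lies above 0 but is open.

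Csf3r, the G-CSF receptor, is the member whose deposited numbers contradict each other. Its library values were 26.6, 26.1 and 23.4 FPKM in the 7-day libraries and 10.5, 11.4 and 12.3 FPKM in the 3-day libraries. On these values every 7-day library was above every 3-day library, and the means were 25.4 ± 1.72 FPKM at 7 days and 11.4 ± 0.880 FPKM at 3 days (n = 3 each, mean ± SD), a ratio of 2.23. In the same row, the authors' deposited table gives 0.689 FPKM for 7 days and 2.66 FPKM for 3 days, with a log2 fold change of -1.95 and a q-value of 0.462. The deposited value of the time thus lay 36.8 times below the mean of its 3 libraries at 7 days and 4.29 times below it at 3 days, and the direction is reversed. For the other 5 members the ratio of library mean to deposited value was 1.00 at both times. The filtered table holds the same Csf3r values. The row is given at mm10 chromosome 4, 126023310 to 126044552, and GENCODE M21 has no other gene overlapping Csf3r.

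Rows whose library values miss the deposited mean by over 1% were not tested, so Csf3r has no test in the main comparison. When rows were set aside for repeated symbols only, its library values gave a log2 change of 1.09 ± 0.11 (limma adjusted p = 7.44e-04). Which of the deposited numbers describes Csf3r cannot be told from the files. The table of all genes has 838 rows with such a mismatch. Of the 805 of them outside repeated symbols that had a usable test and a finite deposited fold, 115 gave a direction opposite to their library means, as Csf3r did. Among the tested rows this was so for 4 of 12772. Those rows were kept because their library means lie within 1% of the deposited ones. Opposite directions are thus largely excluded by the selection, and the number is no contrast to the mismatched rows.

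**Figure D4:**
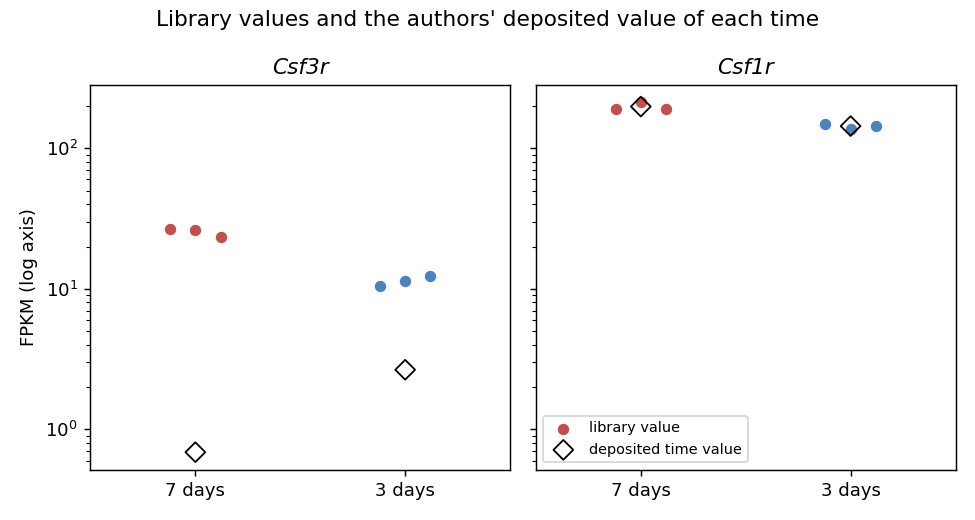
FPKM on a log axis for Csf3r and, for contrast, Csf1r; filled points are the libraries at 7 days (left) and 3 days (right) and open diamonds the value the authors deposited for the time. The diamonds of Csf1r sit at the mean of its libraries, while those of Csf3r sit at 0.689 FPKM and 2.66 FPKM, below all of its libraries.

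Neutrophils are the cells best known for Csf3r, and most of their called markers were lower at 7 days. Of 12 tested markers, Mmp8 and S100a8 were higher, and S100a9, Mmp9, Prtn3, Lcn2 and Cxcr2 were lower, at 7 days. Mpo was listed at 0 in all 3 libraries at 7 days, and Ly6g, Elane and Retnlg have no row in the table used here. The summed markers were 86.8, 101 and 83.3 FPKM at 7 days and 91.4, 99.1 and 107 FPKM at 3 days, which overlap. Without the markers that were called higher, a choice made after their values were seen, the other 10 summed to 19.5, 22.8 and 14.7 FPKM at 7 days and 56.2, 54.04 and 58.02 FPKM at 3 days, with no overlap. Leaving markers out by their direction in these same libraries favours a lower sum at 7 days. The lack of overlap is therefore not a test of neutrophil content. Mmp8, a collagenase of neutrophil granules, had 39.6, 44.6 and 46.2 FPKM at 7 days and 21.3, 24.4 and 29.2 FPKM at 3 days. Cxcr2, a chemokine receptor of neutrophils, had 0.476, 0.118 and 0.254 FPKM at 7 days and 1.58, 0.891 and 1.10 FPKM at 3 days. The ratio of Csf3r library values to the summed markers was 0.306, 0.258 and 0.281 at 7 days and 0.115, 0.115 and 0.114 at 3 days. With the values the authors deposited for the times in place of the library values, the ratio to the mean sum was 0.00761 at 7 days and 0.0268 at 3 days, the reverse direction. The part of neutrophils in the Csf3r values was not tested.

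In the main comparison, listed genes of CSF1R signalling and turnover were called higher more often than lower. The list holds genes that carry the signal and genes that restrain it or shed the receptor. Its counts therefore give no direction of signalling. Of 26 listed adaptors, kinases and regulators, 22 were tested; 10 were higher, 1 was lower and 11 were not called, beside 18.8% and 20.3% of all genes called higher and lower, and their median log2 change was 0.30 beside -0.04 for all genes. Tyrobp, an adaptor that also takes part in CSF1R signalling in macrophages, had 761, 1083 and 844 FPKM at 7 days and 172.5, 285 and 270.1 FPKM at 3 days (log2 1.90 ± 0.23). The docking protein gene Gab2 averaged 26.3 ± 3.36 FPKM at 7 days and 14.7 ± 2.36 FPKM at 3 days (n = 3 each, mean ± SD). Adam17, the protease that sheds CSF1R from the cell surface, had 156, 129.6 and 168 FPKM at 7 days and 96.5, 73.9 and 108 FPKM at 3 days (log2 0.71 ± 0.17), and lost its call without 7-day replicate 3 (limma adjusted p = 0.0546) and with quantile normalization (adjusted p = 0.0507). The member that fell was Dok2, an adaptor that restrains tyrosine kinase signals, with 3.08 ± 0.415 FPKM at 7 days and 7.83 ± 0.232 FPKM at 3 days (n = 3 each, mean ± SD). Without 7-day replicate 2, or without 7-day replicate 3, 6 members were higher, and without 3-day replicate 2, 2 were lower. Quantile normalization gave 4 higher and 4 lower. Fgr, Sos1 and Pik3r1 were set aside and Shc1 has no row in the table used here.

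Of the JAK-STAT genes that serve the beta chains and CSF3R, 14 of 17 were tested; 1 was higher and 4 were lower, with a median log2 change of -0.08 beside -0.04 for all genes. Over all tested genes 18.8% were higher and 20.3% lower, and with 14 genes these counts do not set the list apart. The 3 called Socs genes, which are feedback inhibitors induced by cytokine signals, were all lower. Socs3, which limits signalling by CSF3R among others, had 3.53, 3.54 and 4.89 FPKM at 7 days and 20.2, 14.8 and 19.5 FPKM at 3 days. Its log2 change was -1.94 ± 0.17 (limma adjusted p = 5.18e-04), and it held its call under all 15 alternatives. Socs1 and Socs2 were at a low level, with means of 0.360 ± 0.216 and 1.11 ± 0.5004 FPKM at 7 days and of 1.26 ± 0.546 and 2.21 ± 0.218 FPKM at 3 days (n = 3 each, mean ± SD). Socs1 lost its call under 8 of 14 alternatives and Socs2 under 9 of 15. Without any single library other than 3-day replicate 2, Socs1 was not called, and without any single library other than 7-day replicate 2, Socs2 was not called. The number of lower genes on the list was then 1 to 3, and it was 1 with libraries centred on the median gene. The gene that rose was Mcl1, which protects cells from death and is induced by GM-CSF, with 209, 184 and 196 FPKM at 7 days and 144, 102 and 124 FPKM at 3 days. Stat3 and Cish have no row in the table used here, and Jak2 was set aside. The Jak2 libraries averaged 44.6 FPKM at 7 days and 41.6 FPKM at 3 days. The values deposited for the times were 0.181 and 0.672 FPKM.

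Of 15 transcription factors of myeloid cells, 12 were tested; 5 were higher and 4 were lower, and the median log2 change was 0.31 beside -0.04 for all genes, of which 18.8% were higher and 20.3% lower. Egr2, which is induced by CSF1 in myeloid cells, averaged 4.21 ± 1.17 FPKM at 7 days and 1.56 ± 0.228 FPKM at 3 days (log2 1.00 ± 0.20, n = 3 each, mean ± SD). Egr1, on the same list, was called lower (log2 -0.69 ± 0.17, limma adjusted p = 0.0175). Whether the list reflects a response to CSF1 was not tested. The 3 largest decreases were Cebpb, a factor of emergency myelopoiesis and inflammation, Ets2, a target of Ras signalling, and Klf4, a factor of monocytes. Cebpb had 13.9, 19.6 and 21.4 FPKM at 7 days and 78.6, 32.2 and 52.8 FPKM at 3 days (log2 -1.46 ± 0.31). Ets2 averaged 6.43 ± 0.688 FPKM at 7 days and 16.6 ± 2.35 FPKM at 3 days, and Klf4 2.55 ± 0.0908 FPKM at 7 days and 7.01 ± 0.669 FPKM at 3 days (n = 3 each, mean ± SD). Spi1, the PU.1 gene, has no row in the table used here.

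**Figure D5:**
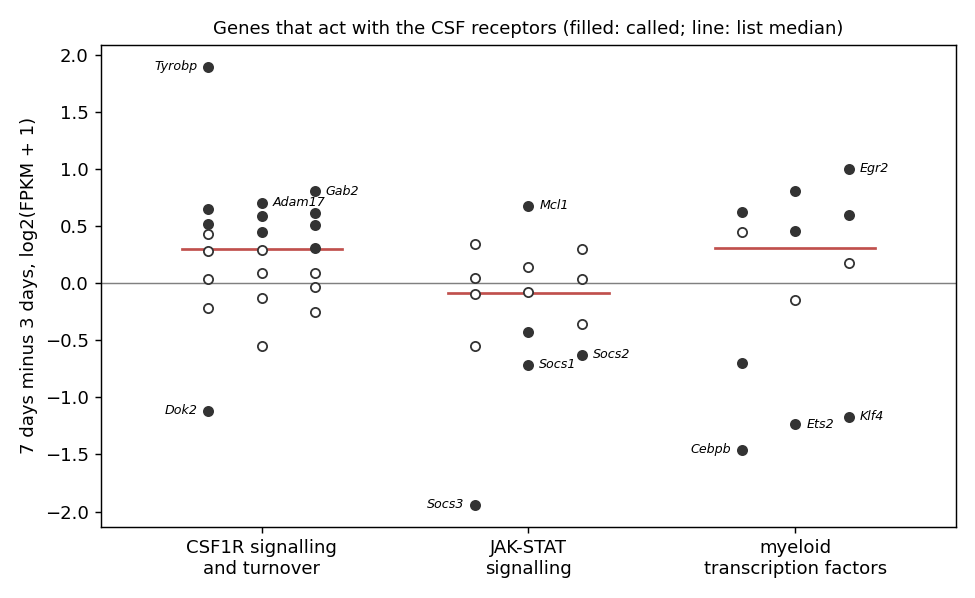
Fitted change at 7 days minus 3 days in log2(FPKM + 1) of each tested gene on the 3 lists of genes that act with the receptors; filled points were called, open points were not, the red line is the list median and the named points are those described in the text. CSF1R signalling genes lie mostly above 0 with Tyrobp highest at 1.90, Socs3 is the lowest JAK-STAT gene at -1.94, and the transcription factors lie on both sides of 0.

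Likeness to each tested member was measured as the root mean square difference of centred log2(FPKM + 1) values over the 6 libraries, among 5766 genes with a mean of 10 FPKM or more. Among the genes most like Csf1r were the kinase gene Map3k3 (difference 0.0269) and Eif1ad (0.0284). Map3k3 had 22.8, 25.9 and 24.1 FPKM at 7 days and 17.6, 16.8 and 17.4 FPKM at 3 days. Closest to Csf2ra were Ccng1 (0.0347), Serinc1 (0.0402) and Pnrc1 (0.0409), to Csf2rb Uevld (0.0363), Tprgl (0.0365) and Rnase4 (0.0581), and to Csf2rb2 Gyg (0.0376), Isca2 (0.0391) and Bad (0.0418). Closest to Csf1 were Tpx2 (0.0431), Copg1 (0.0461) and Dnm1l (0.0545). These names describe profiles over 6 libraries that share their scaling, and no test was made of them.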

How the data were processed

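Libraries of ribosome-bound RNA, 3 at 7 days and 3 at 3 days, were prepared by ScriptSeq v2 per the labels' protocols. The submitters' processing notes name TopHat2 2.0.12, Cufflinks 2.2, Cuffdiff 2.2.1 and mm10 without their roles. The authors deposited FPKM per gene and library, an FPKM value for each time, a log2 fold change, a test score (its statistic), and a p-value and q-value, per the file headers. The scaling between libraries and the filter behind the second table are not given in the sources used here.

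Of 13960 rows, 918 were set aside: 45 with a status other than OK, 838 whose libraries miss the deposited mean by over 1%, 14 at 0 beside 100 FPKM or more, and 32 of repeated symbols (some meet several). log2(FPKM + 1) of the other 13042 genes was fitted with limma 3.58.1 (R 4.3.3), mean-dependent prior, 7 days minus 3 days, two-sided, Benjamini-Hochberg adjusted over all; calls use an adjusted p of 0.05 or less. A log2 change on this scale understates the change of low genes. The smallest exact p for 3 against 3 is 0.1. Means and SD are of FPKM, whose read depth is unknown, so no counting interval is given. The script was tested on simulated data. Ratios, likeness and sequences were computed with Python 3.11.15, numpy 2.4.6, pandas 2.3.3 and Biopython 1.88; figures with matplotlib 3.10.9. Promoters are RefSeq windows on GRCm38.p6.

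The members and lists were chosen with earlier results of these data known. Named are all members, every gene of short lists, and from longer lists up to 4 called genes, ranked by size of change, that reach 1 FPKM on average at either time, plus the 3 genes most like each tested member (1 of them is not reported here) and single markers a sentence turns on. Alternatives were pseudocounts of 0.1 and 5, a mean of 1 FPKM or more, quantile normalization and centring on the median gene. Others were no row set aside (repeated symbols still left out), the filtered table and no mean-dependent prior. The replicate number was also used as a block, and each library was left out in turn. Added after the data were seen were Csf2rb and Csf2rb2 summed, the deposited Csf3r values, and a neutrophil sum without the markers called higher.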

Additional observations from a re-analysis of the deposited data

How the results depend on the processing

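Csf1, Csf2ra and Csf2rb kept their direction and call under every alternative run, with log2 changes from -0.17 to -0.03, 0.32 to 0.57 and 0.53 to 0.83. Csf1r was 0.25 and not called with quantile normalization, and 0.41 to 0.48 and called with each library left out. Csf2rb2 was called with centring on the median gene (0.58), with the replicate block (0.50, adjusted p = 0.0280) and summed with Csf2rb (0.65). Whether same-numbered libraries share more than a number is not known here. Deviations of same-numbered libraries correlated at 0.10, 0.01 and 0.00 across genes, and not every library correlated best with its own number. Correlations over all genes cannot decide whether single genes carry a shared replicate effect. The block gave 2450 genes higher and 2425 lower, and left 2 JAK-STAT genes lower. The Csf3r library change was 0.89 with a pseudocount of 5 and -1.95 from the deposited values of the times, with which the 7-day minus 3-day difference of its ratio to the neutrophil sum was -0.0191. Csf2rb2 was 0.31 to 0.60 with each library left out, lowest without 3-day replicate 1. Il34 turned to 0.29 with quantile normalization and ranged from -0.51 to 0.032 (without 3-day replicate 2) with each library left out. Over all genes 2453 were higher and 2645 lower; each library left out gave 1572 to 2207 higher and 1697 to 2565 lower, fewest without 7-day replicate 2, and the filtered table gave 1433 lower. CSF1R signalling genes numbered 4 higher and 4 lower with quantile normalization, 2 lower with no row set aside, with the filtered table and with no mean-dependent prior, and 6 to 11 higher and 1 to 2 lower with each library left out. JAK-STAT genes numbered 2 higher with genes of 1 FPKM or more and with centring; 2 lower with genes of 1 FPKM or more and with quantile normalization, 1 lower with centring, and 1 to 3 lower with each library left out. Where genes of 1 FPKM or more, the filtered table or fewer libraries were used, fewer genes or samples entered; for the other changes the cause was not tested. The unknown read depth limits what can be said of Il34, Socs1 and Socs2, which lie near 1 FPKM.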
